A study of Daphnia magna with 48 samples.

Results

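Clone FI of *Daphnia magna*, the water flea, comes from a rock pool in Finland that dries out, a habitat the study classed as intermittent. It made up 12 of the 48 samples sequenced, and its samples were picked out by the clone name in their labels. The response described here is that to acute severe hypoxia (ASH). FI females were reared either at 8 mg O2/L (normoxia, 6 samples) or in water bubbled down to 4 mg O2/L at regular intervals (chronic mild intermittent hypoxia, CMIH, 6 samples). In each rearing condition, 3 samples were taken after 12 h at 1 mg O2/L (ASH) and 3 without acute exposure (control). All were adults of 25 days, and each sample pooled the RNA of 2 whole individuals. Samples are numbered 1 to 12 as in the labels: normoxia-reared ASH 1 to 3, CMIH-reared ASH 4 to 6, normoxia-reared control 7 to 9 and CMIH-reared control 10 to 12. FI is 1 clone from 1 pond, and the rearing condition was set for a tank as a whole. The acute exposure was given in sealed flasks of several individuals, and no label says which samples shared a flask. The p-values therefore measure the spread between pools of individuals of this clone. By the methods, the controls for sequencing stayed unfed in flasks at the oxygen level of their rearing and were frozen together with the exposed individuals.

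*Daphnia* carry hemoglobin dissolved in the hemolymph, and low oxygen is known to raise its synthesis, which turns the animals red. In animals in general, the hypoxia-inducible factor pathway switches on genes for oxygen transport and anaerobic metabolism when oxygen falls. Cytoglobin, known best from mammals, is an intracellular globin of the same superfamily that binds oxygen and removes nitric oxide. The transcript identifiers of the table carry a contig and a gene number and no description, and 0 of the 6050 matched the gene table at hand. A function was therefore known only for the 4 globin transcripts that the study itself labels, and all others are given by contig and gene number, so that 11F0.55 is gene 0.55 of contig 11F. The paper counts more hemoglobins and cytoglobins than these 4 in its reference, so further globins may be among the transcripts without a description. For lack of descriptions, the whole-body origin of the RNA could not be checked against tissue markers either.

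The FI libraries were the shallowest of the 4 clones. They held 16894 to 234890 reads, with a median of 45529, against medians of 262587.5 (IL), 260267.5 (GB) and 74506 (HU). The 3 libraries under 25000 reads were normoxia-reared ASH 2, normoxia-reared control 9 and CMIH-reared control 11, and they had the 3 highest normalization factors (TMM, 1.22, 1.41 and 1.27). The median was 66602 reads after ASH and 36909 in controls, a difference of 0.98 on the log2 scale of total reads that was not larger than the spread between samples (exact permutation test within rearing conditions, two-sided, p = 0.215). The composition of the libraries differed with ASH. The 10 transcripts with the most FI reads took 12.7% ± 3.11 (SD, n = 6) of the reads of a control and 9.30% ± 0.276 (SD, n = 6) of an ASH sample, with no overlap (exact permutation p = 0.005, the smallest that the 400 relabellings allow). Their highest share, 18.5%, was in CMIH-reared control 12. Among the 10, 292F0.4 alone took 6.54% ± 2.54 (SD, n = 6) of the reads of a control and 2.98% ± 0.464 (SD, n = 6) of an ASH sample. The drop was thus largely that of 292F0.4. The others moved in both directions, such as 3F39.53 from 0.132% to 1.27% and 16F23.149 from 1.27% to 0.672%. With every library thinned to 16894 reads, a control gave 3582 ± 104 (SD, n = 6) transcripts with a read and an ASH sample 3352 ± 118 (SD, n = 6) (exact permutation p = 0.015). What part depth and composition had in the results below was not tested.

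ASH changed 86 transcripts in FI, of which 66 rose and 20 fell. The hemoglobin precursor 11F0.55, which was almost absent from controls, and the hemoglobin precursor 3F39.53, which had the most reads of the 4 globins, had the lowest p-values. In whole bodies, fewer cells of a type and less RNA per cell cannot be told apart, and every value is relative to the other transcripts of its library. The 66 that rose did so by 1.20 to 7.10 on the log2 scale, with a median of 2.22, and 43 of them rose by 2 or more. The 20 that fell did so by 1.00 to 6.10, with a median of −2.08. Transcripts were called at an adjusted p under 0.05 in edgeR's quasi-likelihood F test, with rearing as a block and Benjamini-Hochberg adjustment over the 6050 transcripts, so that 1.42% of all transcripts were called, 1.09% as higher and 0.331% as lower. The call nearest the threshold was 0F54.58 with an adjusted p of 0.0487 (edgeR), and the next transcript outside had 0.0509. A further count at an unadjusted p under 0.05 gave 813 transcripts, and the median log2 fold change of all transcripts was 0.0032.

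**Figure D1:**
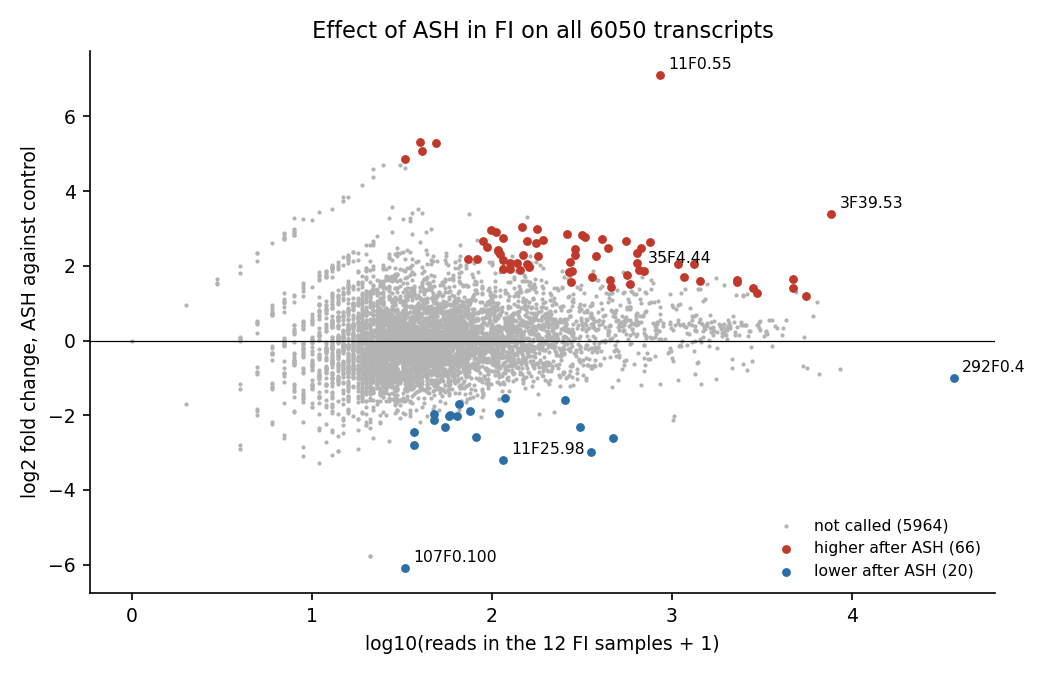
Log2 fold change of each of the 6050 transcripts after ASH in FI (y) against its reads in the 12 FI samples on a log10 axis (x). Grey points are transcripts that were not called, red points the 66 called higher and blue points the 20 called lower. At the top, 11F0.55 and 3F39.53 stand apart, and most called transcripts with many reads lie above 0. The sum of reads (x) holds more ASH than control reads.

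The transcripts that rose had more reads, summed over the 12 FI samples, than those that fell. ASH samples held 630002 of the FI reads and controls 258828, so this sum is itself larger for a transcript that rose. Abundance apart from the direction of change was not tested. The 66 had a median of 275.5 reads over the 12 samples and 57 of them had over 100, while the 20 had a median of 70 and 8 had over 100; over all transcripts the median was 41 reads and 22.7% had over 100. Direction moved with this sum across the whole table too, where the same holds. Of the 169 transcripts with over 1000 FI reads, 80.5% had a fold change above 0, with a median of 0.37 on the log2 scale, and of the 1503 with under 24 reads, 42.4% did, with a median of −0.16. The split of the calls also differed between settings. TMM gave 66 higher and 20 lower (76.7% higher), library size alone 36 and 29 (55.4% higher), DESeq2 105 and 77 (57.7% higher), thinned reads 50 and 29 (63.3% higher), and removal of the 10 most abundant transcripts 86 and 14 (86.0% higher). The count of 86 fell to 30 without normoxia-reared control 9, to 37 without normoxia-reared ASH 1, to 39 without normoxia-reared control 7, to 43 without CMIH-reared ASH 5, to 52 without CMIH-reared control 10 and to 57 without CMIH-reared control 12, and to 44 without the 3 libraries under 25000 reads. The separation of the single samples was also read. Over all transcripts, 40 (0.661%) had all 6 ASH values of RPKM above all 6 control values and 61 (1.01%) had all below, 1.67% together; among the called, this held for 25 of the 66 that rose and 13 of the 20 that fell.

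Of the 4 labelled globin transcripts, 3 rose after ASH. The hemoglobin precursor 11F0.55 (2339 bases) was read 861 times after ASH and 2 times in controls. Its level after ASH ran from 291 RPKM in CMIH-reared sample 4 to 824.5 RPKM in normoxia-reared sample 3, with a median of 499, while 5 of the 6 controls had no read and CMIH-reared control 12 had 8.52 RPKM. Every ASH sample was thus high and every control was at or near 0. Pooled over samples, its share of the reads was 177-fold higher after ASH, with an exact 95% interval of 48.8 to 1463 for counting error only. The fitted log2 fold change was 7.10 ± 0.60 (SE, adjusted p = 1.13e-08 in edgeR), a value that depends on how reads of 0 are treated. It ranged from 6.83 to 9.57 over the alternative settings.

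The hemoglobin precursor 3F39.53 (7466 bases) had 7380 reads after ASH and 309 in controls. Its level was 84.1 RPKM at the lowest, 188 at the median and 266 at the highest in controls, and 1193, 1700 and 2279 RPKM after ASH. The groups were far apart, with the lowest ASH sample (CMIH-reared 5) well above the highest control (CMIH-reared 10). Its log2 fold change was 3.39 ± 0.31 (SE, adjusted p = 4.47e-08 in edgeR). Its share of all reads was 0.132% ± 0.0526 (SD, n = 6) in controls and 1.27% ± 0.295 (SD, n = 6) after ASH.

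The cytoglobin precursor 35F4.44 (2869 bases) was present in every control. Controls had 51.6 RPKM at the lowest, 98.6 at the median and 215 at the highest, against 256, 289 and 561 RPKM after ASH. The groups did not overlap, but the gap was narrow between CMIH-reared control 10 and normoxia-reared ASH 1. The log2 fold change was 1.90 ± 0.34 (SE, adjusted p = 0.00377 in edgeR). The other labelled cytoglobin precursor, 0F43.50 (1255 bases), was read too rarely for a call. It had 15 reads in 5 of the 6 ASH samples and 1 read in normoxia-reared control 8, and the ratio of its pooled shares of the reads was 6.16 with an exact 95% interval of 0.948 to 259 for counting error only. Its log2 fold change was 2.37 ± 1.01 (SE, adjusted p = 0.283 in edgeR), and a difference was not detectable at this depth.

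**Figure D2:**
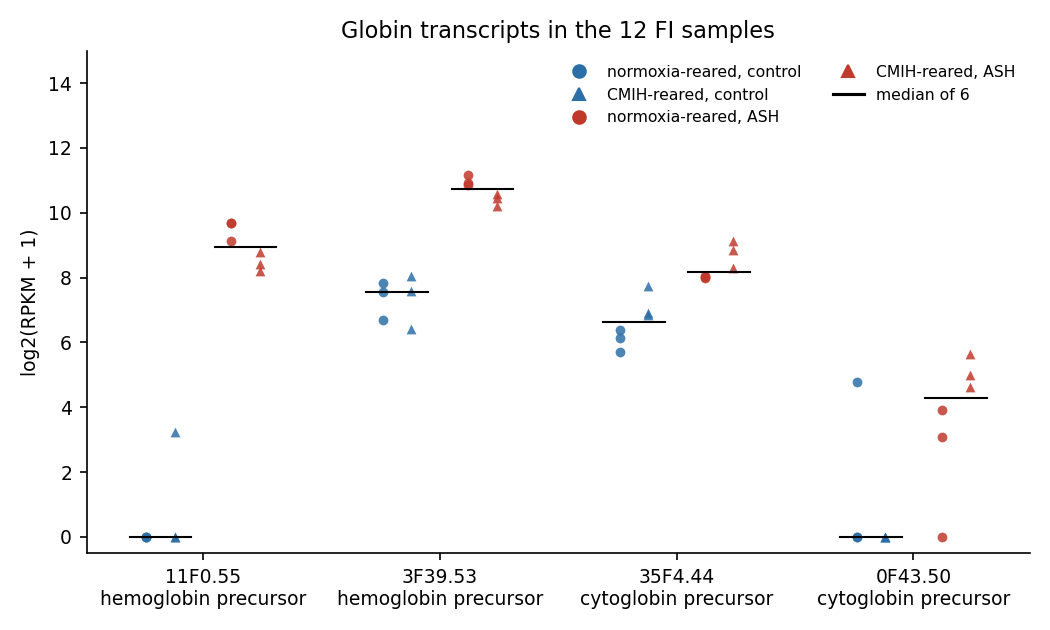
Level of the 4 globin transcripts in each of the 12 FI samples, as log2(RPKM + 1). Blue symbols are controls, red symbols ASH samples, circles normoxia-reared and triangles CMIH-reared; bars are medians of 6 samples, and the ASH and control samples are separated for 11F0.55, 3F39.53 and 35F4.44 and overlap for 0F43.50.

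The hemoglobin genes of *Daphnia* are known to lie in clusters, so the transcripts nearest to the 4 globins were followed too. Nearness was read from the identifier, as the same contig and the same number before the point. This gave 27 transcripts, 9 near 11F0.55, 2 near 3F39.53, 8 near 35F4.44 and 8 near 0F43.50, with 10 to 637 reads each. Of these 15 had a fold change above 0, with a median of 0.18 on the log2 scale and a range from −0.91 to 1.75. None was called by edgeR, with 1 at an unadjusted p under 0.05 and a smallest adjusted p of 0.367, against 1.42% called over all transcripts.

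The other transcripts with the lowest p-values among those that rose have no description. The first was 1F26.8 (2867 bases), with 7.97, 25.1 and 34.9 RPKM as lowest, median and highest of the controls and 117, 146 and 222 RPKM after ASH. Each ASH sample lay above each control by a wide margin, and the log2 fold change was 2.86 ± 0.42 (SE, adjusted p = 0.000328 in edgeR). It kept its call under all 24 alternative settings.

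The transcript 16F2.79 (1177 bases) was the most abundant of these per length. Its controls were close together at 374, 493 and 566 RPKM, and its ASH samples had 1356, 1564 and 3150 RPKM. There was no overlap, and the log2 fold change was 2.04 ± 0.32 (SE, adjusted p = 0.000652 in edgeR). The transcript next to it, 16F2.80, is 1 base shorter at 1176 bases and rose by the same measure, with 2.07 ± 0.47 (SE, adjusted p = 0.0245 in edgeR). Reads could have been split between such copies, so that the values of each are uncertain.

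Of the next 5, 0F54.57 (3907 bases) had 5.42, 19.3 and 59.7 RPKM in controls and 63.4, 123 and 232 RPKM after ASH. Its highest control, normoxia-reared 8, came close to its lowest ASH sample, normoxia-reared 3. The log2 fold change was 2.72 ± 0.47 (SE, adjusted p = 0.00283 in edgeR). In 21F1.27 (5770 bases) the groups overlapped, since CMIH-reared ASH 6 had 40.7 RPKM and CMIH-reared control 11 had 50.8 RPKM, while normoxia-reared ASH 1 reached 267 RPKM. Its log2 fold change was 2.63 ± 0.47 (SE, adjusted p = 0.00349 in edgeR).

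The short transcript 1F21.30 (435 bases) had no read in controls 8 and 11 and at most 137 RPKM in the others, and 447, 531 and 877 RPKM after ASH. The transcript 13F19.15 (4533 bases) had no read in control 9 and at most 36.7 RPKM in the others, and 54.7, 83.8 and 183 RPKM after ASH. Both were separated without overlap. In 6F30.153 (768 bases), which had 7 control reads in all, the highest control had 130 RPKM and the lowest ASH sample 170 RPKM, and normoxia-reared ASH 3 stood out with 576 RPKM. The log2 fold changes of these 3 were 2.65, 2.46 and 3.03, with adjusted p-values of 0.00377, 0.00399 and 0.00475 in edgeR.

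Some transcripts that rose share a stretch of contig. There were 10 places, read from the identifiers as for the globins, with more than 1 call in the same direction, and they held 22 of the 86 calls. All 3 measured transcripts of place 54 on contig 0F rose (0F54.57, 0F54.58 and 0F54.73, by 1.41 to 2.90 on the log2 scale). At place 13 of contig 3F, 3 of 15 rose (3F13.135, by 2.68, and 3F13.69 and 3F13.70, which no control had), and at place 19 of contig 13F, 2 of 5 rose and the other 3 had fold changes above 0. At 3 of the places the measured transcripts lay on both sides of 0 without leaning to the direction of the calls. At place 2 of contig 16F, 5 of 10 measured transcripts had fold changes above 0, with a median of −0.03, and at place 14 of contig 5F, 5 of 10 did, with a median of 0.08. At place 5 of contig 36F, where 2 fell, 11 of 18 were above 0, with a median of 0.44. In all, 951 places held more than 1 measured transcript, and the 10 were 1.05% of them. Neighbouring copies may share reads. In 4 pairs of called transcripts on the same contig the lengths were equal within 1 base (3F13.69 with 3F13.70, 13F7.63 with 13F7.73, 16F2.79 with 16F2.80 and 5F14.54 with 5F15.108), and the log2 fold changes within a pair differed little, such as 1.57 and 1.61 for 13F7.63 and 13F7.73. Each pair may be 1 measurement rather than 2.

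In 4 of the transcripts that rose, no control had a read. The ASH samples had 48 reads of 3F13.70, 40 of 3F13.69, 39 of 13F6.61 and 32 of 67F2.43, each in 5 of 6 samples. Against a floor of 3 reads over the control group, their shares of the reads were at least 6.57-fold, 5.48-fold, 5.34-fold and 4.38-fold higher after ASH. With these at their bound, the median of the 66 was 2.18 on the log2 scale.

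The lowest p-value among the transcripts that fell was that of 11F25.98 (7366 bases), which, like the others that fell, has no description. Controls had 26.5, 47.0 and 88.4 RPKM as lowest, median and highest, and ASH samples 1.77, 5.53 and 8.41 RPKM. Every ASH sample was below every control, on 19 reads after ASH and 95 in controls. The log2 fold change was −3.20 ± 0.45 (SE, adjusted p = 0.000152 in edgeR). A transcript at the same place, 11F25.28 (1726 bases), had 132, 163 and 274 RPKM in controls and 15.1, 38.3 and 126 RPKM after ASH. It fell by 1.95 on the log2 scale (adjusted p = 0.0102 in edgeR), and its highest ASH sample was the shallow normoxia-reared ASH 2, with 4 reads.

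The transcript 1F29.87 (6284 bases) had 84.8, 133 and 217 RPKM in controls and 8.30, 26.4 and 34.7 RPKM after ASH. The groups were well separated, and it fell by 2.32 on the log2 scale (SE 0.38, adjusted p = 0.00159 in edgeR). The transcript 22F13.103 (6148 bases) varied little within each group, with 65.0, 93.6 and 135 RPKM in controls and 20.2, 28.2 and 35.5 RPKM after ASH. It fell by 1.58 (SE 0.35, adjusted p = 0.0201 in edgeR).

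The transcripts 36F5.68 (842 bases) and 36F5.44 (524 bases) fell together and share a place on contig 36F. Controls had 251, 627 and 2591 RPKM of 36F5.68 and 508, 1157 and 5343 RPKM of 36F5.44. ASH samples had 0, 86.7 and 207 RPKM of the former and 0, 158 and 496 RPKM of the latter. The sample without reads was normoxia-reared ASH 2 in both, and the highest was CMIH-reared control 12 in both, with 219 of the 288 control reads of 36F5.68 and 281 of the 366 of 36F5.44. The groups did not overlap, narrowly so for 36F5.44. They fell by 2.99 (SE 0.52, adjusted p = 0.00283 in edgeR) and by 2.62 (SE 0.52, adjusted p = 0.00775). Without CMIH-reared control 12 they fell by 2.15 and by 1.89, with adjusted p-values of 0.0198 and 0.0437 in edgeR. Of the 24 alternative settings, 36F5.68 lost its call under 1 and 36F5.44 under 2.

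The last 2 of the named transcripts that fell had few reads and overlapping groups. The transcript 15F25.74 (3265 bases) had 30.6, 67.4 and 127 RPKM in controls and 0, 8.34 and 33.4 RPKM after ASH, and fell by 2.60 (SE 0.48, adjusted p = 0.00399 in edgeR). The transcript 23F13.89 (4319 bases) had 28 control reads and 8 ASH reads and fell by 2.80 (SE 0.64, adjusted p = 0.0244 in edgeR). It lost its call under 7 of 24 alternative settings, more than any other named transcript. The largest fitted fall of the 86, −6.10 for 107F0.100, rested on 1 library, since all its 32 reads were in CMIH-reared control 10.

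**Figure D3:**
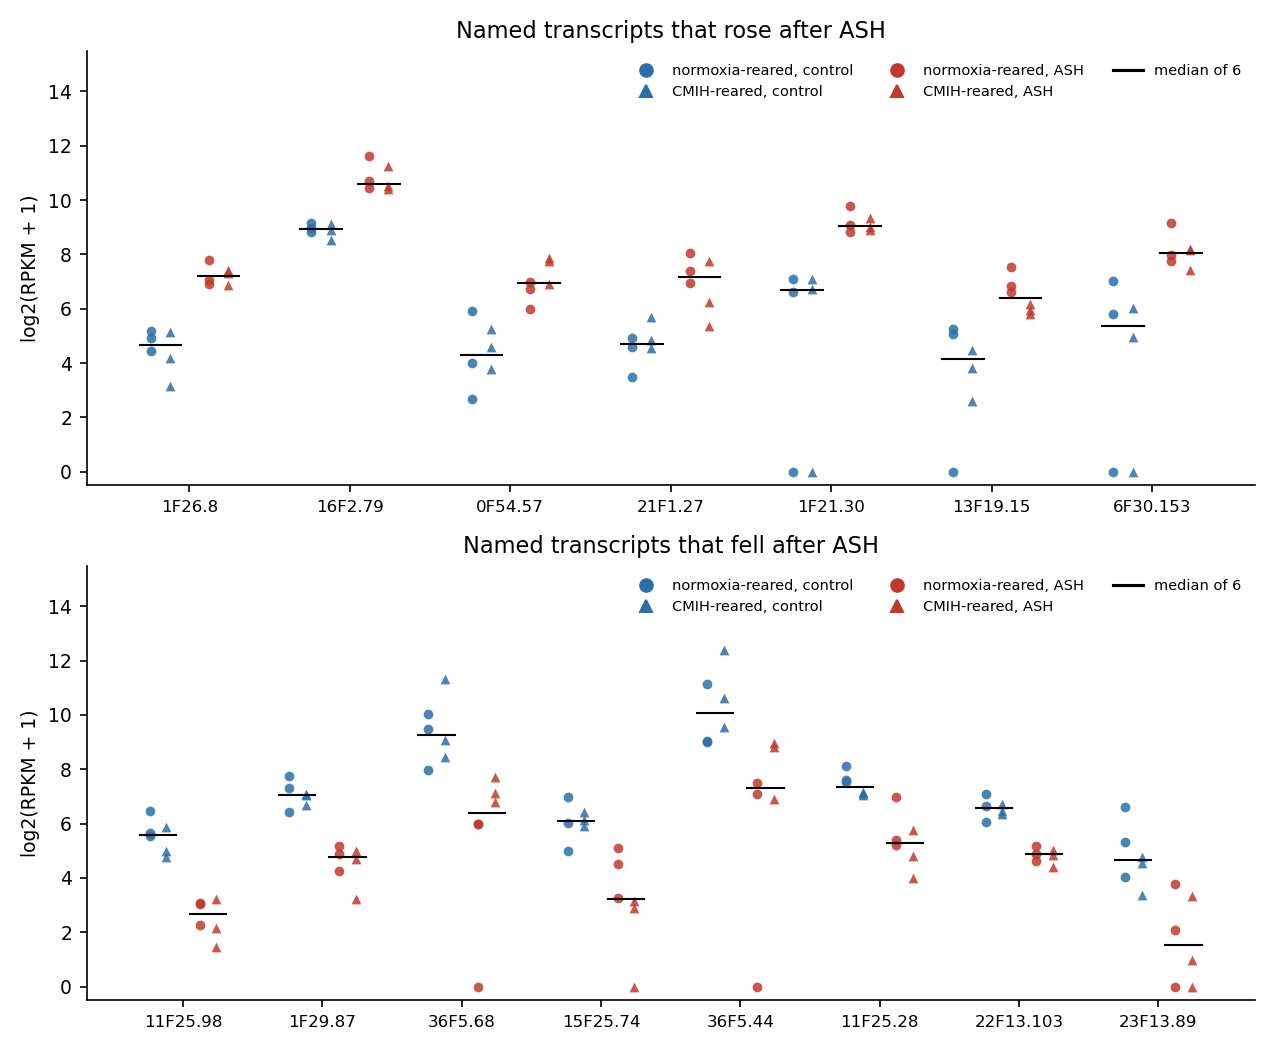
Level of the other named transcripts in each of the 12 FI samples, as log2(RPKM + 1), with those that rose above and those that fell below. Blue symbols are controls, red symbols ASH samples, circles normoxia-reared and triangles CMIH-reared, and bars are medians of 6; samples overlap between the groups in 21F1.27, 15F25.74 and 23F13.89 and in no other transcript shown.

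The most abundant FI transcript, 292F0.4, also fell. Its share of the reads was 6.54% ± 2.54 (SD, n = 6) in controls against 2.98% ± 0.464 (SD, n = 6) under ASH, and its log2 fold change of −1.0 ± 0.26 (SE) passed the threshold with an adjusted p of 0.0461 in edgeR. It was named here after its values were seen.

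The response was then taken apart by rearing condition, with 3 ASH samples against 3 controls in each. Among normoxia-reared *Daphnia* only the hemoglobin precursors 11F0.55 and 3F39.53 were called by edgeR (0.0331% of all transcripts), with 440 transcripts at an unadjusted p under 0.05. Among CMIH-reared *Daphnia* 10 were called (0.165%), 7 higher (0.116%) and 3 lower (0.0496%), with 555 at an unadjusted p under 0.05. They were both hemoglobin precursors, 1F26.8, 0F54.57, 98F0.38, 3F36.15 and 23F9.25, which rose, and 11F25.98, 15F25.74 and 11F13.70, which fell. Of these, 23F9.25 and 11F13.70 were not called in both rearing conditions combined (adjusted p = 0.295 and 0.538 in edgeR), and were named here after their values were seen. The normoxia count rose to 6 without CMIH-reared ASH 5 and to 5 without CMIH-reared control 12 or without normoxia-reared ASH 2. The CMIH count rose to 26 without normoxia-reared ASH 1, to 23 without CMIH-reared ASH 4, to 22 and 20 without CMIH-reared controls 11 and 10, and to 19 without normoxia-reared ASH 3.

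No transcript passed the test of the difference between the responses, the CMIHxASH interaction, in edgeR, with 202 at an unadjusted p under 0.05 and a smallest adjusted p of 0.466. DESeq2 also called 0, with 70 at an unadjusted p under 0.05. The counts of 2 and 10 are thus not shown to differ in what responded. Without CMIH-reared ASH 5, the interaction called 4. All of the 66 transcripts that rose in the combined test had fold changes above 0 in both rearing conditions, with medians of 2.10 in normoxia and 2.26 in CMIH. Of the 20 that fell, 19 were below 0 in normoxia and 20 in CMIH, with medians of −1.82 and −2.32. The combined test chose these transcripts on the same samples, so that their direction in each rearing condition is a description.

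The globins gave these values by rearing condition, beginning with the hemoglobin precursors. With ASH, the level of 11F0.55 was 357 ± 75.1 RPKM (SD, n = 3) if reared in CMIH and 734 ± 151 RPKM (SD, n = 3) if reared in normoxia. All normoxia-reared ASH samples were above all CMIH-reared ones. The precursor 3F39.53 was ordered in the same way, with 1867, 2279 and 1924 RPKM in normoxia-reared ASH samples 1, 2 and 3 and 1410, 1193 and 1534 RPKM in CMIH-reared ASH samples 4, 5 and 6. The cytoglobin precursor 35F4.44 was ordered the other way. It had 256, 266 and 259 RPKM in normoxia-reared ASH samples 1, 2 and 3 and 561, 312 and 464 RPKM in CMIH-reared ASH samples 4, 5 and 6, and its 3 CMIH-reared controls, with 115 to 215 RPKM, were above its 3 normoxia-reared controls, with 51.6 to 82.5 RPKM. For 35F4.44 the log2 fold change was 2.16 ± 0.54 (SE) in normoxia and 1.68 ± 0.49 (SE) in CMIH, and for 3F39.53 it was 3.65 ± 0.46 (SE) and 3.14 ± 0.45 (SE). For 11F0.55 the fitted values were 9.92 in normoxia, where no control had a read, and 6.08 in CMIH, and they depend on how reads of 0 are treated. The cytoglobin precursor 0F43.50 had 3 reads after ASH and 1 in controls in normoxia, and 12 and 0 in CMIH. Its log2 fold change was 0.21 ± 1.48 (SE) in normoxia, and the fitted value in CMIH, 4.58, again rests on controls without a read. None of these differences in response between rearing conditions passed the test (adjusted p of the interaction 1.00 for the 4 transcripts in edgeR, unadjusted 0.0699 for 11F0.55 and 0.0826 for 0F43.50), and 3 samples against 3 cannot go below 0.10 in an exact two-sided permutation test.

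**Figure D4:**
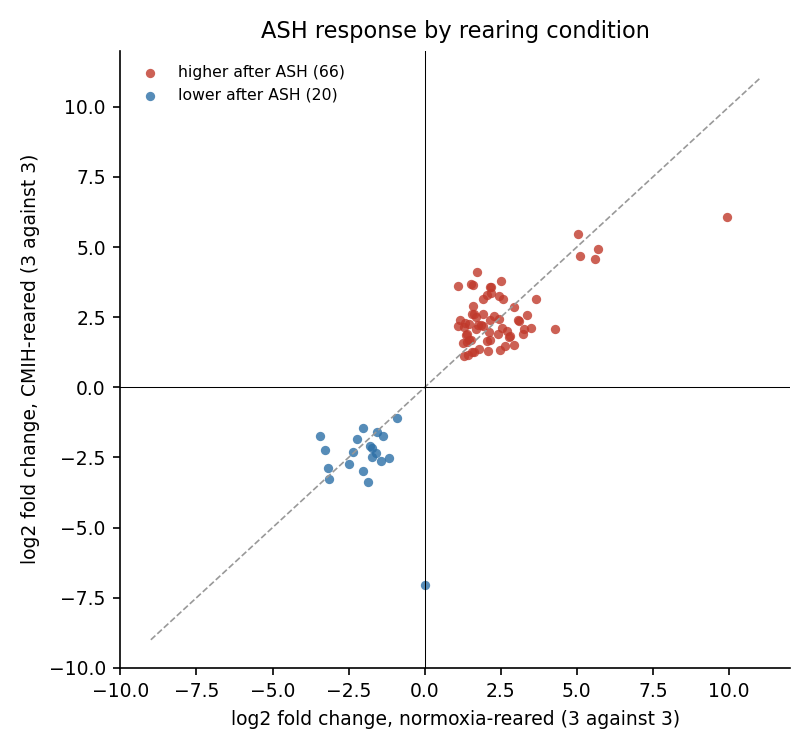
Log2 fold change after ASH in CMIH-reared FI (y) against that in normoxia-reared FI (x), 3 samples against 3 in each, for the 86 transcripts called in the combined test. Red points are the 66 that rose and blue points the 20 that fell; all but 107F0.100, which had no normoxia-reared read, lie in the 2 quadrants of equal sign around the dashed line of equality.

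The transcripts called in FI were then read in the other clones, IL from an intermittent habitat and GB and HU from permanent ones, each with 6 ASH samples and 6 controls of its own. Since every clone had runs of its own, effects of clone and of run cannot be told apart. Tested alone in the same way, IL had 6 calls (0.0992%), GB 11 (0.182%) and HU 1 (0.0165%), all of them higher after ASH. Of the 66 transcripts that rose in FI, 53 (80.3%) had a fold change above 0 in IL, 39 (59.1%) in GB and 27 (40.9%) in HU, against 49.2%, 54.2% and 43.6% of all transcripts above 0 in FI. Their median log2 fold change was 2.22 in FI, where they were chosen, compared with 0.41 (IL), 0.13 (GB) and −0.27 (HU). Of the 20 that fell in FI, 5 (25.0%) were below 0 in IL, 14 (70.0%) in GB and 5 (25.0%) in HU, against 45.1%, 47.1% and 42.7% of all transcripts below 0 in FI.

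Of the 66, 21 (31.8%) had fold changes above 0 in IL, GB and HU, against 14.6% of all transcripts above 0 in FI. Of these, 9 had an unadjusted p under 0.05 in all 3, as had 16 of the 6050 transcripts (0.264%). These 9 were the hemoglobin precursors 11F0.55 and 3F39.53, the cytoglobin precursor 35F4.44, and 1F26.8, 16F2.79, 1F21.30, 1F52.43, 98F0.38 and 1F48.69. The log2 fold change of 11F0.55 was 9.00 ± 0.94 (SE) in IL, 6.44 ± 0.78 (SE) in GB and 4.95 ± 0.63 (SE) in HU, and that of 3F39.53 was 3.46, 2.77 and 2.47. The FI value of 35F4.44, 1.90, lay between 0.89 in IL and 1.31 in GB on the one side and 2.65 in HU on the other. For none of the 3 did the difference between FI and the mean of the other clones pass the test (adjusted p = 0.937, 0.703 and 0.712 in edgeR).

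In HU the values of the 66 lay widely on both sides of 0. A log2 fold change under −1 was found for 22 (33.3%) and one over 1 for 16 (24.2%), against 12.6% and 6.85% of all transcripts above 0 in FI. The lowest were 13F14.75 and 13F14.21, with −3.52 each in HU against 2.82 and 2.76 in FI, followed by 23F4.32 (−3.47 against 2.48) and 23F6.9 (−3.11 against 2.34). For none of these 4 did the difference between FI and the mean of the other clones pass the test (adjusted p = 0.229, 0.245, 0.251 and 0.283 in edgeR). In all, 6 of the 66 (9.09%) went the opposite way in HU at an unadjusted p under 0.05, 1 did so in IL (1.52%) and 0 in GB, against 1.72%, 2.71% and 1.34% of all transcripts that were lower at that p in HU, IL and GB. None of the 6 passed the adjusted threshold in HU. Among the 6 are 13F14.75 and 13F14.21, which lie at the same place of contig 13F. In FI they had 304 and 315 reads after ASH and 13 and 14 in controls. Their log2 fold changes were also nearly equal in IL (0.52 and 0.51), so they may share reads and be 1 measurement rather than 2. The transcripts 36F5.68 and 36F5.44 fell in FI and had log2 fold changes of 4.58 and 4.26 in HU, near 0 in IL (−0.10 and −0.14) and 0.73 and 0.42 in GB. Their differences from the mean of the other clones did not pass either (adjusted p = 0.0649 and 0.138 in edgeR).

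**Figure D5:**
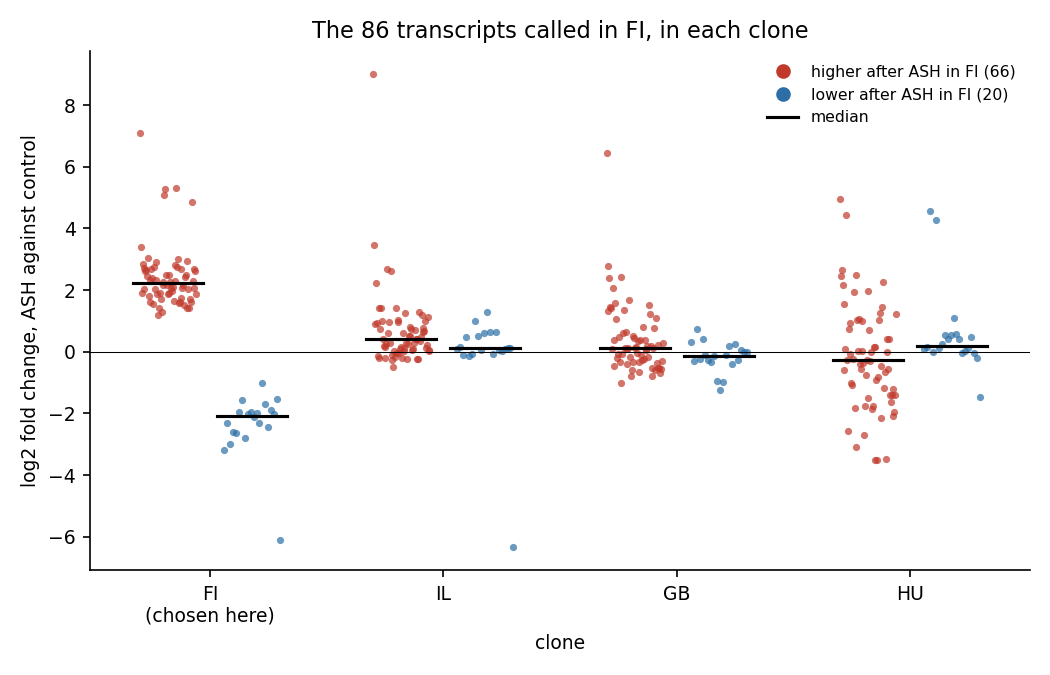
Log2 fold change after ASH (y) of the 86 transcripts called in FI, in each of the 4 clones (x). Red points are the 66 that rose in FI, blue points the 20 that fell, and bars are medians; the red medians are 2.22 for FI, where the transcripts were chosen, 0.41 for IL, 0.13 for GB and −0.27 for HU.

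The difference in response itself was tested in 1 model of all 48 samples. The ASH response of FI differed from the mean of IL, GB and HU in 21 transcripts (0.347%), 11 higher and 10 lower, of which 15 were also called in FI. The 11 that were higher had a median of 2.26 on the log2 scale in FI and of −0.05, −0.04 and −0.29 in IL, GB and HU. The 10 that were lower had −1.99 in FI and 0.16, −0.06 and 0.23 in the others. Both sets were chosen by this difference on the same samples, so that their medians are a description. The lowest p-value was that of 11F25.98, which fell in FI and had log2 fold changes of 0.10, 0.33 and 0.09 in IL, GB and HU, a difference of −3.26 ± 0.44 (SE, adjusted p = 2.96e-05 in edgeR). The transcript 21F1.27 rose in FI and had −0.21, 0.10 and 0.10 in the others, a difference of 2.74 ± 0.44 (SE, adjusted p = 0.000473). The transcripts 15F25.74 and 1F29.87 followed, with differences of −2.58 ± 0.49 (SE, adjusted p = 0.00931) and −2.23 ± 0.43 (SE, adjusted p = 0.0102). This test could say little of transcripts missing from another clone, since 781 of the 6050, among them 24 of the 86, had no read in all 3 libraries of at least 1 group of IL, GB or HU. The count of 21 became 61 without normoxia-reared control 8 and 12 without CMIH-reared ASH 6, 11 without normoxia-reared control 9, 9 without normoxia-reared control 7, 5 without CMIH-reared control 12 or without normoxia-reared ASH 1, and 4 without CMIH-reared ASH 5.

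Against IL, the other clone from an intermittent habitat, the FI response differed in 17 transcripts (0.281%), 11 higher and 6 lower. Of these 10 were also called in FI and 9 also differed from the mean of all other clones. The lowest p-values were again those of 11F25.98, with a difference of −3.14 on the log2 scale, and of 21F1.27, with 2.97 (adjusted p = 0.00209 for each in edgeR). At place 54 on contig 0F the difference was 2.92 for 0F54.57 and 2.75 for 0F54.73 (adjusted p = 0.0378 for each in edgeR), and 1.79 for 0F54.58, which did not pass (adjusted p = 0.147). The count of 17 became 33 without normoxia-reared ASH 2, and 10, 8, 5, 4, 3, 3 and 2 without, in that order, CMIH-reared control 11, CMIH-reared control 10, normoxia-reared control 9, normoxia-reared control 7, CMIH-reared ASH 5, normoxia-reared ASH 1 and CMIH-reared control 12. With all libraries thinned to 16894 reads, 1 transcript differed from the mean of the other clones and 0 from IL by edgeR, with 511 and 446 at an unadjusted p under 0.05.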

How the data were processed

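RNA from pools of 2 individuals was sequenced as PCR-amplified cDNA on the Oxford Nanopore MinION. The authors used Guppy to basecall, demultiplex and map the reads, to a transcriptome that held only the longest isoform per gene, and deposited unnormalized counts of reads on 6050 transcripts, each with at least 72 reads over all 48 samples. The RPKM they deposited use the sum of these transcripts' reads in a sample as its depth. The submitters' processing notes name SAMtools. Each clone was prepared and sequenced in its own runs, and by the methods its 4 treatments were pooled by barcode into 3 replicate libraries. The labels assign no FI sample to one of these, so the tests hold no library block.

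Counts were fitted with edgeR 4.0.16 in R 4.3.3 (TMM, quasi-likelihood F tests, Benjamini-Hochberg adjustment over all 6050 transcripts, threshold 0.05). The ASH effect in FI was fitted on the 12 FI samples with rearing as a block, the effects per rearing condition and their interaction from 4 group means, and differences between clones in 1 model of 48 samples. Standard errors are approximate, as the size of the log2 fold change over the square root of F. DESeq2 1.42.0 (likelihood ratio test), which the study used, was an alternative, with other scalings, filters, dispersions, thinning and omission of each FI sample. RPKM served for levels and figures, without a test. Single library measures were tested by exact permutation within rearing conditions (400 relabellings). Reads per FI sample ranged from 16894 to 234890, and intervals (95%, exact) and floors (3 reads) cover counting error only. The fits were also run on simulated counts with planted changes, and no statement here rests on that run.

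Transcripts named in the text are the 4 globins, the 10 that rose and the 8 that fell with the lowest p, up to 4 for the interaction (0 passed), up to 4 for FI against the mean of the other clones and up to 2 against IL, and any called neighbour of a globin (0 passed). This gave 19 transcripts, and others are named as examples or where stated. The transcripts and lists were chosen with earlier results of these data known. Transcript and promoter sequences were not analysed here. Figures were drawn with matplotlib 3.10.9 in Python 3.11.15.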

Additional observations from a re-analysis of the deposited data

Results flagged for a closer look

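In 8 of 48 groups of 6 samples examined (the 19 named transcripts and 5 library measures, in ASH samples and in controls), a sample lay far from the nearest other. The gap exceeded 0.625 of the group's range. This limit marks about 1 in 20 independent groups of normally spread values. The groups here share samples, and a group in which only 1 sample has a read is always marked. The count of 8 is thus a description and cannot be set against 1 in 20. CMIH-reared control 12 was the far sample in 3 control groups, for 11F0.55 (8.52 RPKM, 2 reads, against 0), for 36F5.68 (2591 against 1055 RPKM) and for 36F5.44 (5343 against 2259 RPKM). The shallow normoxia-reared ASH 2 was the far sample for 11F25.28 (126 against 53.8 RPKM, on 4 reads) and for the TMM factor (1.22 against 0.97). The others were 0F43.50 in normoxia-reared control 8 (26.5 RPKM, 1 read, against 0), 6F30.153 in normoxia-reared ASH 3 (576 against 294 RPKM, on 25 reads) and 23F13.89 in normoxia-reared control 9 (95.9 against 39.2 RPKM, on 7 reads).

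For 8 named transcripts the ASH response of FI differed from that of other clones in edgeR. Some of them met the rule for naming by their low p in this same test, so the count of 8 follows in part from that choice. Against the mean of IL, GB and HU, the log2 difference was 2.74 for 21F1.27, 2.29 for 13F19.15, −3.26 for 11F25.98, −2.23 for 1F29.87, −2.58 for 15F25.74, −1.83 for 11F25.28 and −3.01 for 23F13.89, with adjusted p-values from 2.96e-05 to 0.0371. Against IL alone it was 2.92 for 0F54.57, 2.97 for 21F1.27, −3.14 for 11F25.98, −2.37 for 1F29.87 and −2.95 for 15F25.74, with adjusted p-values from 0.00209 to 0.0378. What part the separate sequencing runs of the clones had in these differences cannot be told apart.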

How the results depend on the processing

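Of the 18 named transcripts called in FI, 10 kept their call under every alternative in which they were fitted, the 3 called globins among them, and 8 lost it at least once (3F39.53 is 1 of the 10 most abundant transcripts and has no value without them, so 23 of 24 settings apply); of 454 values under alternatives, 18 fell short of the threshold and 0 changed sign. The median log2 fold change of all transcripts was 0.0032 with TMM and moved to 0.12 with TMMwsp, −0.17 with library size alone, −0.11 with DESeq2 and 0.12 without the 10 most abundant transcripts. DESeq2 called 182 transcripts for ASH in FI, 18 in normoxia-reared and 23 in CMIH-reared FI, 158 for FI against the other clones and 145 against IL. Robust dispersions called 158, 55 and 110 in FI and per rearing condition, 5 for the interaction and 30 against IL. Thinning to the shallowest library called 11 in normoxia, 28 in CMIH, 2 for the interaction, 1 against the other clones and 0 against IL. With the spread taken from all 48 samples, 13 were called in normoxia and 26 in CMIH. Without the 10 most abundant transcripts 1 was called in normoxia and 30 against IL. A minimum of 24 FI reads gave 43 against the other clones and 30 against IL, library size alone gave 82 (11 higher and 71 lower) and 11 (1 and 10), and TMMwsp gave 29 against IL. Added after the data had been seen, the newer quasi-likelihood method of edgeR gave 43 against the other clones and 5 against IL, and leaving out the 3 libraries under 25000 reads gave 44 for ASH in FI, 16 in CMIH, 13 against the other clones and 6 against IL. Leaving out each FI sample gave 30 to 122 for ASH in FI, 2 to 6 in normoxia, 7 to 26 in CMIH, 0 to 4 for the interaction, 4 to 61 against the other clones and 2 to 33 against IL. The difference in detected transcripts, ASH minus control, was 427 at full depth and −229 after thinning. The cause of these changes was not tested, other than that thinned or omitted samples hold fewer reads. The older quasi-likelihood method, listed as an alternative, is the default of the version used and was not run apart. No paired analysis was possible because the ASH samples and controls of FI share no replicate number, and no label ties an ASH sample to a control by one of the 3 pooled libraries that the methods describe. Transcripts under 24 reads in FI, 1503 of 6050, gave no call in either direction, so that changes in them were not detectable at this depth.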

Other observations

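Contig 13F held 9 of the 86 calls among its 179 measured transcripts (5.03%, against 1.42% over all), 8 of them higher after ASH. It was singled out after the values were seen, and it includes the pair 13F7.63 and 13F7.73, which may share reads.

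A group of 3 short transcripts, 5F14.54 and 5F15.108 (540 bases each) and 5990.4 (456 bases), moved alike in every clone. Their log2 fold changes were −2.12, −2.0 and −1.97 in FI, 1.27, 0.64 and 0.61 in IL, −1.23, −0.97 and −0.95 in GB and 1.09, 0.57 and 0.55 in HU. Only the FI values passed the adjusted threshold, and the 3 may be copies among which reads were split. The group was singled out after the values were seen, so that its likeness across clones is a description.

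No transcript passed the test of CMIH rearing in FI by edgeR, with 227 at an unadjusted p under 0.05 and a smallest adjusted p of 0.108. It used ASH samples and controls together, so rearing among controls alone was not tested. For the labelled globins the log2 fold change with CMIH was 1.063 (35F4.44, unadjusted p = 0.00404 in edgeR), 1.105 (0F43.50), −0.698 (11F0.55) and −0.175 (3F39.53). The paper reports a cytoglobin that was higher with CMIH in the clones from intermittent habitats.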
